A study of Mus musculus with 12 samples.

Results

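The transcriptional effect common to an active and an inactive form of Tert was measured by pooling the 2 knock-in groups and comparing them with their mCherry control on a high-fat diet (HFD). RNA-seq had been made from the stromal vascular fraction (SVF) of mouse adipose tissue, and all 9 HFD libraries of the 12 in the series entered the contrast. The control group was HFD mCherry (genotype p21+/mcherry, replicates 15, 17 and 20). The knock-in libraries were HFD Tert (p21+/mcherry-Tert, replicates 25, 26 and 27) and HFD TertCi (p21+/mcherry-TertCi, replicates 30, 31 and 33), in which the p21 promoter drives mouse Tert or its catalytically inactive form. Every group therefore carried 1 modified p21 allele, and the text describing the series calls the HFD control p21+/- without naming mCherry. A further group on standard diet, SD mCherry (p21+/mcherry, replicates 1, 2 and 3), shared the estimate of the spread and is used below as a reference level. The labels describe primary stromal cells and give no strain, age, sex, fat depot or batch, nor do they say that replicates are separate animals, so the tests measure the spread between these libraries. The promoter acts in whichever cells express p21, so neither form is restricted to a cell type.

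Tert is the catalytic subunit of telomerase, which copies telomere repeats onto chromosome ends, and the inactive form keeps the protein without that activity. The p21 gene, Cdkn1a, encodes an inhibitor of cyclin-dependent kinases that is induced by p53 and is expressed in many stressed or senescent cells. The SVF is what remains of fat tissue once mature adipocytes are removed: adipocyte progenitors, endothelial and mural cells, macrophages and other leukocytes. In obese fat, macrophages that take up lipid (marked by Trem2, Gpnmb and Cd9) gather and stromal cells deposit collagen.

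Library totals ran from 16430330 to 19486965 counts, and 16231 to 19147 genes had a count. Levels are given in CPM, which are counts relative to the scaled library size. The added feature mCherry_Tert, whose sequence is not described in the sources used here, had 0 counts in each of the 3 HFD mCherry libraries, where 3 counts correspond to at most 0.180 CPM, and 33 to 86 counts in the 6 knock-in libraries. Tert was at 1.66, 1.02 and 1.61 CPM in HFD mCherry and at 6.99 to 16.6 CPM in the knock-in libraries (median 12.1), with no overlap. The log2 difference in mean log2(CPM + 0.1) was 2.94 (2-sided exact permutation p = 0.0119, the smallest that 84 splits can give). Cdkn1a itself was at 226, 425 and 367 CPM in HFD mCherry and at 222 to 478 CPM in the knock-in libraries, a log2 difference of -0.12 that lay within the spread (2-sided exact permutation p = 0.762). Crisp1, a secretory gene of the epididymis, exceeded 100 CPM in HFD mCherry 15 and 17, HFD Tert 25 and 26, and HFD TertCi 30 and 33, and was under 1 CPM in HFD TertCi 31, HFD Tert 27 and HFD mCherry 20. The summed level of 15 epididymis and vas deferens genes ran from 10.4 to 41424 CPM in HFD mCherry and from 1.53 to 32730 CPM in the knock-in libraries. Adipoq, a defining gene of mature adipocytes, was low throughout, at 0.552 to 7.85 CPM in the 9 HFD libraries, whereas the progenitor gene Pdgfra was at 56.7 CPM or more and the endothelial gene Pecam1 at 300 CPM or more.

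Sequences are shown for the locus that drives both cassettes and for 4 of the called genes, so that the transcripts discussed can be placed in the genome. The 250 bases before a transcript start are from RefSeq (GRCm38.p6), plus strand, with capitals marking GGGCGG, the GC box, and CCAAT, in either orientation. Both Cdkn1a starts are on chromosome 17. The first window, chr17:29090729-29090978, holds 3 exonic bases of Cdkn1a, and the second, chr17:29093519-29093768, lies within an exon of another transcript in the GENCODE M21 annotation. The windows of Pdgfra (chr5:75152001-75152250), Mfsd12 (chr10:81357241-81357490) and Cfd (chr10:79890603-79890852) hold no exonic base in that annotation.
Cdkn1a, first start: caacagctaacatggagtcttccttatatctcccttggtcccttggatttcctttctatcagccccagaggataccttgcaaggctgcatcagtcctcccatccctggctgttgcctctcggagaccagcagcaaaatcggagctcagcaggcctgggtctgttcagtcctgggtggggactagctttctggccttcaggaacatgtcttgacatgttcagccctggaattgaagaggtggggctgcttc
Cdkn1a, second start: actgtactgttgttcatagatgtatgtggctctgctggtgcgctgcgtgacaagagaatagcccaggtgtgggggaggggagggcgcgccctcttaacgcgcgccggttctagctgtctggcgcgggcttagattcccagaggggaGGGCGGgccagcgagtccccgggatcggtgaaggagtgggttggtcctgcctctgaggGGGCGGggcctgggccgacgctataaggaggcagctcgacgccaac
Pdgfra: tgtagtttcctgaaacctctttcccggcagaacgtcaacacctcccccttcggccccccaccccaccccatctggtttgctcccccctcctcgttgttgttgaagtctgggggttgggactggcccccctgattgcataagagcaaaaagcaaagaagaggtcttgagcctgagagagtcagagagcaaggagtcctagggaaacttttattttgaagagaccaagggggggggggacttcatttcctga
Mfsd12: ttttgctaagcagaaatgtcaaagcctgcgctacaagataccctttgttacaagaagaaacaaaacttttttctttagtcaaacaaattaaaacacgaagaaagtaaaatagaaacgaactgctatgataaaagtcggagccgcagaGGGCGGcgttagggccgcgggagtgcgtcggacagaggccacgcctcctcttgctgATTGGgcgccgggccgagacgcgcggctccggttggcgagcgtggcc
Cfd: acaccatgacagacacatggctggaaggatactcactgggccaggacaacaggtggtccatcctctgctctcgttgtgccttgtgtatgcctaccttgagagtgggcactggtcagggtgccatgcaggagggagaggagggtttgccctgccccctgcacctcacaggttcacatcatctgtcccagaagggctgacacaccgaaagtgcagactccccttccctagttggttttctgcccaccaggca

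The second Cdkn1a window held 2 GC boxes and the Mfsd12 window 1 GC box and 1 CCAAT box, while the windows of Pdgfra and Cfd held neither. Among the called genes with a RefSeq promoter entry, GGGCGG on either strand was present for 8 of 14 genes that were lower (57.1%) and for 0 of 3 that were higher, against 35.4% of 27025 genes. CCAAT was present for 5 of the 14 (35.7%) and 37.5% of all genes, CACGTG for 2 of the 14 (14.3%) and 6.86% of all genes, and TATAAA for 1 of the 14 (7.14%) and 14.3% of all genes. Both strands were searched, matches may overlap one another, and a match describes letters only. The called feature Mir7062 is a 66-base hairpin on the minus strand of chromosome 7 (chr7:139986809-139986874), all of it inside the gene Adam8 on the same strand and outside its exons. Its mature forms are shown with the seed in capitals to identify the feature. The libraries were poly-T selected and made from long fragments, so counts there are not a measure of the mature miRNA.
mmu-miR-7062-5p: uGGAGGCCagcuuguggagugucu
mmu-miR-7062-3p: aCUAACUUcuccuggccccacag

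Few genes were called, and most of them were lower in the knock-in libraries. Of 16713 genes tested with edgeR's quasi-likelihood test, 28 (0.168%) passed an adjusted p of 0.05: 24 were lower (0.144%) and 4 higher (0.0239%). In all 28 the 6 knock-in libraries and the 3 HFD mCherry libraries did not overlap, a separation seen in 2179 of all genes (13%; 6.01% higher and 7.03% lower). An unadjusted p under 0.05 was reached by 3504 genes (21%), of which 1263 were higher (7.56%) and 2241 lower (13.4%). The median log2 fold change of all genes was -0.05. The number of calls rested on single libraries. It was 690 without HFD mCherry 15, 524 without HFD Tert 27 and 482 without SD mCherry 3. It was 0 without HFD mCherry 17, HFD mCherry 20, HFD Tert 25 or HFD TertCi 33. It was 1 without HFD Tert 26, HFD TertCi 30 or HFD TertCi 31, 2 without SD mCherry 1 and 7 without SD mCherry 2. Scaling by library size alone gave 121 calls, 50 higher and 71 lower. Among the 6 HFD libraries with Crisp1, a division chosen after seeing the data, the balance turned to 115 higher and 38 lower of 153. All 28 genes were also called, in the same direction, by DESeq2, with an epididymis score as covariate, with a term for libraries with Crisp1, and without HFD mCherry 15, and 10 of them by limma-voom. These fits called different shares of all genes. DESeq2 called 3.64% higher and 6.07% lower, the covariate fit 3.21% and 7.43%, the Crisp1 term 1.18% and 3.12%, the fit without HFD mCherry 15 0.469% and 3.57%, and limma-voom 0.00598% and 0.0658%.

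**Figure D1:**
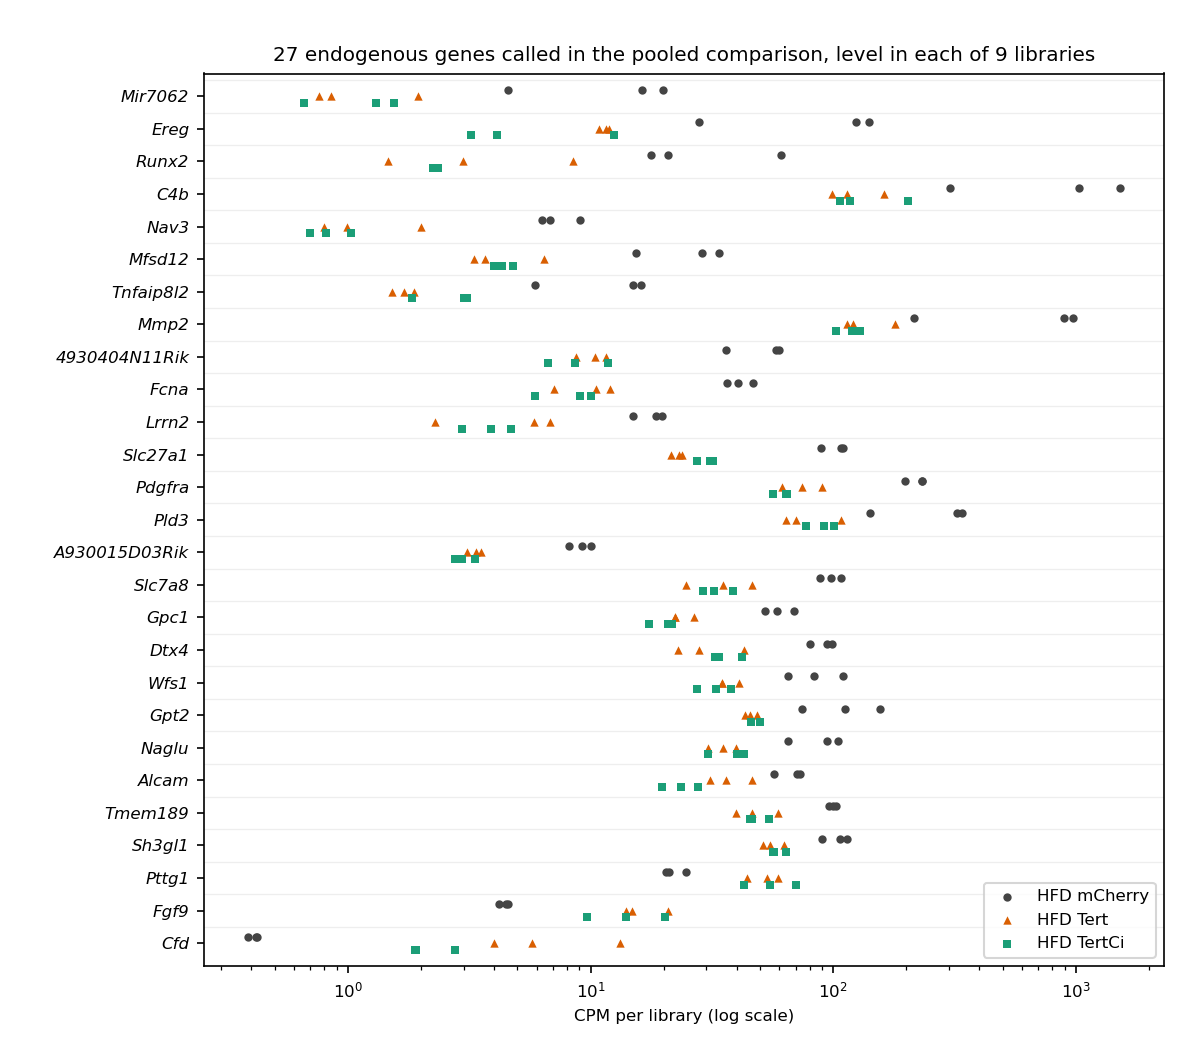
Level in CPM (log axis) of the 27 called endogenous genes in each of the 9 HFD libraries, with 1 point per library and shape and colour for the group. In every row the 3 HFD mCherry points lie on one side of all 6 knock-in points, to the right for 24 genes and to the left for Cfd, Fgf9 and Pttg1.

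Among the lower genes with the greatest change were Ereg, Runx2, Nav3 and Lrrn2. Ereg, which encodes the EGF receptor ligand epiregulin, was at 28.1, 124 and 141 CPM in HFD mCherry and at 3.21 to 12.5 CPM in the knock-in libraries (median 11.2). It fell by 3.49 on the log2 scale (SE 0.542, edgeR adjusted p = 0.0443), and HFD mCherry 15 was the lowest control. Runx2, the transcription factor that directs osteoblast formation, was at 61.1, 20.9 and 17.7 CPM in HFD mCherry and at 1.46 to 8.46 CPM in the knock-in libraries (median 2.30). It fell by 3.40 (SE 0.533, adjusted p = 0.0443), and here HFD mCherry 15 was the highest control. Nav3, a neuron navigator protein that associates with microtubules, fell by 2.83 (SE 0.449, adjusted p = 0.0461), from 6.30, 9.02 and 6.81 CPM to between 0.702 and 2.0 CPM. Lrrn2, a leucine-rich repeat membrane protein, fell by 2.02 (SE 0.313, adjusted p = 0.0443), from 15, 19.8 and 18.6 CPM to a knock-in median of 4.29 CPM. For Runx2 and Nav3 the highest knock-in library was HFD Tert 27.

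C4b, Fcna, Tnfaip8l2 and Mmp2 were lower as well. C4b, complement component C4, was at 303, 1026 and 1524 CPM in HFD mCherry and at 99.1 to 203 CPM in the knock-in libraries (median 115). It fell by 2.83 (SE 0.442, adjusted p = 0.0443), although reads of C4b and its near-identical copy C4a may be divided by the counting. Fcna encodes ficolin A, a lectin that starts the lectin pathway of complement. It was at 36.4, 46.8 and 40.7 CPM in HFD mCherry and at 5.92 to 12 CPM in the knock-in libraries, and fell by 2.18 (SE 0.300, adjusted p = 0.0435). Tnfaip8l2, known as TIPE2, a lipid-binding regulator of immune cells, fell by 2.54 (SE 0.348, adjusted p = 0.0435), from 5.91, 15 and 16.1 CPM to a knock-in median of 1.86 CPM. Mmp2, the gelatinase that degrades type IV collagen, was at 216, 891 and 975 CPM in HFD mCherry and at 103 to 179 CPM in the knock-in libraries. It fell by 2.45 (SE 0.371, adjusted p = 0.0443), and HFD mCherry 15 stood nearer to the knock-in libraries than to the other two controls.

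Mir7062, the feature inside Adam8, fell by 3.53 (SE 0.544, adjusted p = 0.0443), from 4.58, 16.4 and 19.9 CPM to between 0.663 and 1.94 CPM. Adam8 itself, a membrane metalloprotease of leukocytes, was at 63.6, 235 and 232 CPM in HFD mCherry and at 7.47 to 81.0 CPM in the knock-in libraries, and its log2 fold change of -2.52 (SE 0.688) did not pass (adjusted p = 0.0972). The groups overlapped for Adam8, whose exons do not hold the hairpin.

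Mfsd12 and 4930404N11Rik lie on opposite strands of one stretch of chromosome 10. Mfsd12, a lysosomal membrane transporter needed for cysteine import, was at 15.5, 28.9 and 33.7 CPM in HFD mCherry and at 3.31 to 6.40 CPM in the knock-in libraries. It fell by 2.56 (SE 0.314, adjusted p = 0.0365). 4930404N11Rik fell by 2.42 (SE 0.227) with an adjusted p of 0.00846, the lowest of all genes, from 36.2, 58.3 and 59.7 CPM to between 6.68 and 11.8 CPM. Whether strand was used in counting is not given in the sources used here, so reads from this overlap cannot be assigned to one of the genes. In RefSeq, 15 of the 27 called endogenous genes overlap another annotated gene.

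Pdgfra and Slc27a1 were the called genes that act in fat progenitors and in lipid uptake. Pdgfra, the receptor for platelet-derived growth factors that marks mesenchymal progenitors, was at 198, 232 and 232 CPM in HFD mCherry and at 56.7 to 89.6 CPM in the knock-in libraries (median 64.1). It fell by 1.70 (SE 0.178, adjusted p = 0.0119). Slc27a1, a fatty acid transport protein, was at 108, 89.0 and 110 CPM in HFD mCherry and at 21.5 to 32 CPM in the knock-in libraries, and fell by 1.96 (SE 0.301, adjusted p = 0.0443). The receptor Pdgfrb was at 104, 219 and 271 CPM against 63.5 to 193 CPM, with overlap, and was not called (log2 fold change -0.79, SE 0.383, adjusted p = 0.266). Of the 7 PDGF ligands and receptors, 1 was called lower (0.144% of all genes) and none higher (0.0239% of all genes). Their median log2 fold change was -0.05, and its sign turned under some alternatives.

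The remaining 11 lower genes, which lay outside the rule for named genes and were picked with their values in view, changed less. Pld3 and Naglu, both lysosomal enzymes, fell by 1.66 and 1.27 on the log2 scale. Slc7a8, an amino acid transporter, was at 88.5, 108 and 97.7 CPM in HFD mCherry and at 24.7 to 46.5 CPM in the knock-in libraries, and fell by 1.51. Gpc1, a cell-surface heparan sulfate proteoglycan, fell by 1.46, from 69.0, 58.8 and 52.6 CPM to a knock-in median of 22.0 CPM. Alcam, an adhesion molecule, fell by 1.16 and Dtx4, a ubiquitin ligase of the Deltex family, by 1.44. Gpt2, mitochondrial alanine aminotransferase, fell by 1.29, and its 6 knock-in libraries lay between 43.2 and 50.0 CPM. Wfs1, the endoplasmic reticulum protein wolframin, fell by 1.31, Tmem189, a desaturase of ether lipids, by 1.03 and Sh3gl1, an endophilin of the endocytic pathway, by 0.84. A930015D03Rik, which overlaps 3 class I histocompatibility genes on the other strand, fell by 1.53. Of these partners, H2-T24 was lower without being called (log2 fold change -1.83, edgeR adjusted p = 0.0675), and H2-T22 and H2-T23 were higher (0.44 and 0.22). Since strand use is not given, reads from this overlap cannot be assigned to one gene either. Among the 11 called genes, adjusted p ran up to 0.0496, for Tmem189.

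Apart from the cassette, 3 genes rose. Cfd, adipsin, the complement protease secreted by adipocytes, had 7 counts in each HFD mCherry library (0.387, 0.421 and 0.418 CPM) and was at 1.89 to 13.2 CPM in the knock-in libraries (median 3.38). Its log2 fold change was 3.30 (SE 0.474, adjusted p = 0.0443), and at this level each control value has a wide counting error. SD mCherry had 19.2, 15.8 and 10.1 CPM of Cfd. Fgf9, a secreted growth factor, was at 4.20, 4.57 and 4.48 CPM in HFD mCherry and at 9.64 to 20.8 CPM in the knock-in libraries, and rose by 1.82 (SE 0.283, adjusted p = 0.0443). Pttg1, securin, a regulator of the separation of sister chromatids at anaphase, rose by 1.29 (SE 0.209, adjusted p = 0.0483), from 24.9, 20.5 and 21 CPM to between 43.0 and 70.3 CPM. mCherry_Tert was the fourth feature called higher, with 0 counts in the controls.

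The next genes on the higher side did not pass the test, and 7 of them are given as values. Car3, an abundant carbonic anhydrase of adipocytes and muscle, was at 4.36, 6.07 and 4.42 CPM in HFD mCherry and at 16.6 to 65.6 CPM in the knock-in libraries (log2 fold change 2.66, SE 0.467, adjusted p = 0.0545). AU021092 was at 7.24, 6.97 and 9.08 CPM against 30.2 to 47.1 CPM, with an adjusted p of 0.0527. Ptn, the growth factor pleiotrophin, was at 4.86, 5.71 and 3.58 CPM against 12.8 to 25.1 CPM. Smoc1, a matricellular calcium-binding protein, was at 16.2, 11.2 and 11 CPM against 40.3 to 62.4 CPM. Cish, an inhibitor of cytokine signalling, had a log2 fold change of 0.92 (SE 0.167) and Ssbp3, a transcriptional cofactor, 0.96 (SE 0.177). Tmem151a was at 5.69, 9.08 and 6.15 CPM against 19.8 to 66.4 CPM. Adjusted p was 0.0546 for Smoc1, Cish, Ssbp3 and Ptn. Tert, given above, had an adjusted p of 0.0560 in the same fit and was not called.

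The values of each form are given side by side, against the same 3 HFD mCherry libraries. Because the called genes separate all 6 knock-in libraries from these controls, their sign is the same in both forms by selection, and only the sizes are described. Pdgfra had log2 fold changes of -1.55 (SE 0.218) in HFD Tert and -1.84 (SE 0.220) in HFD TertCi. For 4930404N11Rik the values were -2.33 (SE 0.286) and -2.50 (SE 0.288), for Mfsd12 -2.54 (SE 0.398) and -2.57 (SE 0.398), and for Fgf9 1.90 (SE 0.309) and 1.73 (SE 0.308). Taken alone, HFD Tert gave 0 calls (0%) and HFD TertCi 2 calls (0.012%). An unadjusted p under 0.05 was reached by 2735 genes (16.4%) for Tert and by 2452 genes (14.7%) for TertCi. The test of Tert against TertCi called 0 genes (0%) by edgeR, 9 by DESeq2 and 0 by limma-voom, and 227 genes (1.36%) had an unadjusted p under 0.05. Of the 28 genes, 2 were among those 227. Cfd was higher in HFD Tert than in HFD TertCi (log2 difference 1.81, SE 0.456) and Alcam likewise (0.67, SE 0.225), and neither passed (edgeR adjusted p = 1 for each). Absence of a call does not show that the 2 forms act alike: for Runx2 the difference was 0.91 with an SE of 0.645, and for Ereg 0.80 with an SE of 0.651.

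**Figure D2:**
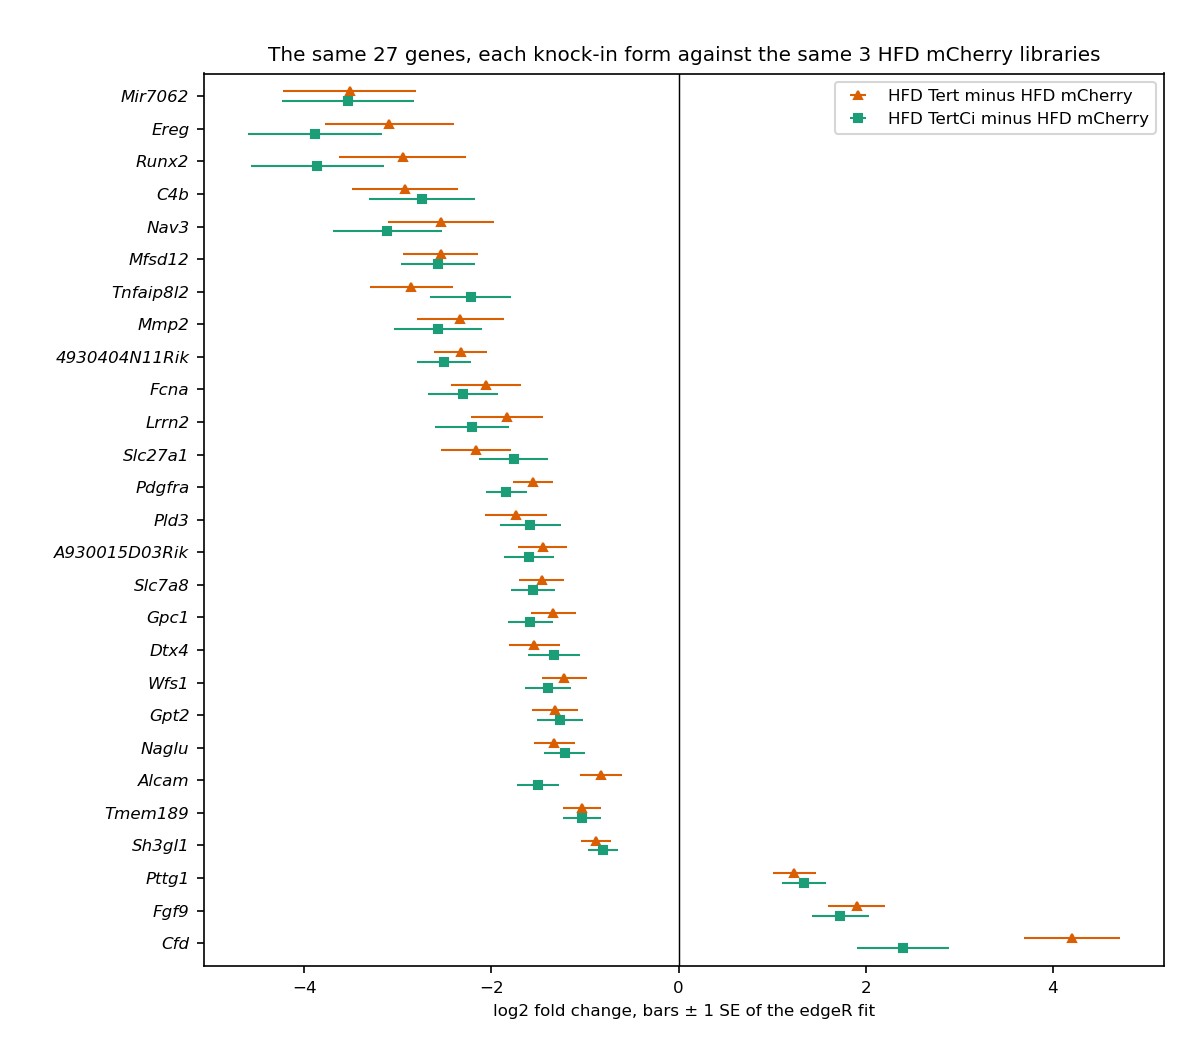
Log2 fold change of each knock-in form against HFD mCherry for the 27 called endogenous genes, with bars of 1 SE derived from the edgeR F statistic. Triangles stand for Tert and squares for TertCi, the shared side of 0 follows from how the genes were selected, and for Cfd and Alcam the bars of the 2 forms are apart.

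The position of the called genes relative to the standard diet differed between them. The knock-in median lay within the SD mCherry range for 11 of the 24 lower genes, above it for 5 and below it for 8. Mmp2 was at 86.1 to 120 CPM in SD mCherry and Runx2 at 2.52 to 5.16 CPM, close to the knock-in levels. Slc27a1 departed from this, with 102, 117 and 32.6 CPM in SD mCherry against 21.5 to 32 CPM in the knock-in libraries. A930015D03Rik was likewise at 6.40 to 8.25 CPM in SD mCherry and at 2.75 to 3.53 CPM in the knock-in libraries. Fgf9 was at 7.23 to 9.09 CPM in SD mCherry, below all knock-in libraries. These levels are a description, and the diet was not tested here.

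Macrophage genes were lower as a group without any being called. Of 18 macrophage markers tested, 17 had a negative log2 fold change, against 53.5% of all genes, and 16 had an unadjusted p under 0.05 in that direction, against 13.4%. The median was -1.69, against -0.05 for all genes, and 0 passed the adjusted threshold with edgeR, while DESeq2 called 12 lower (background 6.07%) and edgeR without HFD mCherry 15 called 10 lower (background 3.57%). Without HFD mCherry 17 or without HFD mCherry 20, edgeR called 0 of all genes. The summed level of the macrophage markers was 2202, 5737 and 4803 CPM in HFD mCherry 15, 17 and 20. It was 588 to 2560 CPM in the knock-in libraries (median 1000.2), so that HFD Tert 27 overlapped HFD mCherry 15. SD mCherry had 694 to 1127 CPM. In bulk libraries such as these, fewer macrophages and less RNA per macrophage cannot be told apart.

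Single members show the size of the difference. Cd68, a lysosomal membrane glycoprotein of phagocytes, was at 124, 433 and 441 CPM in HFD mCherry and at 13.1 to 92.4 CPM in the knock-in libraries (median 28.7), or -3.01 on the log2 scale (SE 0.595, adjusted p = 0.0560). C1qb, a chain of complement C1q, was at 239, 677 and 560 CPM against 61.0 to 206 CPM, also without overlap (-2.11, SE 0.389, adjusted p = 0.0546). Csf1r, the receptor macrophages need to survive, was at 124, 307 and 283 CPM against 38.7 to 113 CPM. Adgre1, which encodes F4/80, was at 53.7, 186 and 160 CPM against 9.08 to 57.1 CPM, with HFD Tert 27 above HFD mCherry 15. The 2 libraries HFD Tert 27 and HFD TertCi 31, which lack Crisp1, were the highest of the 6 for Cd68, C1qb, Csf1r and Adgre1.

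The lipid-associated macrophage programme followed the same course. Of its 18 genes, 17 were lower (53.5% of all genes) and 14 had an unadjusted p under 0.05 in that direction (13.4%). The median log2 fold change was -1.75, with 0 calls by edgeR and 10 called lower by DESeq2 (background 6.07%). Trem2, the lipid receptor that controls this state, was at 63.1, 253 and 226 CPM in HFD mCherry and at 6.35 to 70.5 CPM in the knock-in libraries (log2 fold change -2.71, SE 0.753, adjusted p = 0.101). Gpnmb, a lysosomal glycoprotein of lipid-laden macrophages, ran from 288 to 1577 CPM against 22.3 to 308 CPM. Atp6v0d2, a subunit of the proton pump, was at 76.2, 149 and 171 CPM against 0.107 to 34.1 CPM, and Lipa, the lysosomal acid lipase, at 124, 465 and 462 CPM against 29.7 to 108 CPM. Spp1, osteopontin, was at 34.4 to 63.1 CPM against 3.26 to 19.7 CPM and reached 258 CPM in SD mCherry 3. Of 22 lysosome genes, 21 were lower and 13 had an unadjusted p under 0.05 (background 13.4%), with a median of -0.82. Ctsd, cathepsin D, was at 1060, 2630 and 2618 CPM in HFD mCherry and at 652 to 876 CPM in the knock-in libraries.

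The other immune lists differed in size. The 9 resident macrophage genes tested had a median log2 fold change of -0.77, with 6 lower and 3 higher. Their summed level overlapped, at 524, 1009 and 909 CPM in HFD mCherry and 445 to 1061 CPM in the knock-in libraries. Folr2, a folate receptor of perivascular macrophages, was at 57.0, 159 and 133 CPM against 4.86 to 41.0 CPM. The 14 inflammatory cytokine genes had a median of -0.64, with 11 lower and 3 higher, and 5 lower at an unadjusted p under 0.05. Their summed level overlapped, at 2325 to 5701 CPM in HFD mCherry and 3465 to 5453 CPM in the knock-in libraries. Among the lower genes Il12b, a subunit of IL-12, was at 20.2, 39.7 and 45.5 CPM against 3.52 to 16.4 CPM. Nlrp3, the inflammasome sensor, was lower by a log2 value of -1.24 (SE 0.367, edgeR adjusted p = 0.111). The 16 chemokines had a median of -0.67, with 12 lower and 4 higher, and none separated the groups without overlap. Their summed level overlapped as well, at 5575 to 17173 CPM in HFD mCherry and 5081 to 11749 CPM in the knock-in libraries. Ccl11, eotaxin, was at 170, 749 and 528 CPM against 88.3 to 274 CPM. The 9 MHC class II genes had a median of -0.82. Their median difference was -1.18 within the libraries with Crisp1 and -0.34 within those without. Here and below, such a difference is one of mean log2 CPM, not the fitted log2 fold change. The comparison without Crisp1 sets HFD Tert 27 and HFD TertCi 31 against HFD mCherry 20 alone. The 15 interferon-response genes had a median of -0.28, with median differences of -0.61 with Crisp1 and 0.12 without. Mast cell genes had the lowest median of the cell type lists other than the epididymal one, -2.06 over 9 genes, 6 of them lower at an unadjusted p under 0.05. In that list 8 genes were lower and 1 higher. The summed level of the listed genes overlapped, at 142, 364 and 297 CPM in HFD mCherry 15, 17 and 20 and 165 to 255 CPM in the knock-in libraries. The mast cell tryptase Tpsb2 was at 12.6, 82.8 and 62.8 CPM against 5.99 to 10.6 CPM, and the protease Cpa3 at 3.09, 13.5 and 12.7 CPM against 0.0644 to 2.19 CPM. None of these list members was called by edgeR. An unadjusted p under 0.05 with a lower level was reached by 13.4% of all genes. DESeq2, which called 6.07% of all genes lower and 3.64% higher, called 1 resident macrophage gene, 2 cytokine genes, 2 chemokines and 5 mast cell genes lower, 1 mast cell gene higher, and 1 interferon-response gene in each direction. Apart from the mast cell genes, these counts are within about 1 gene of those shares.

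**Figure D3:**
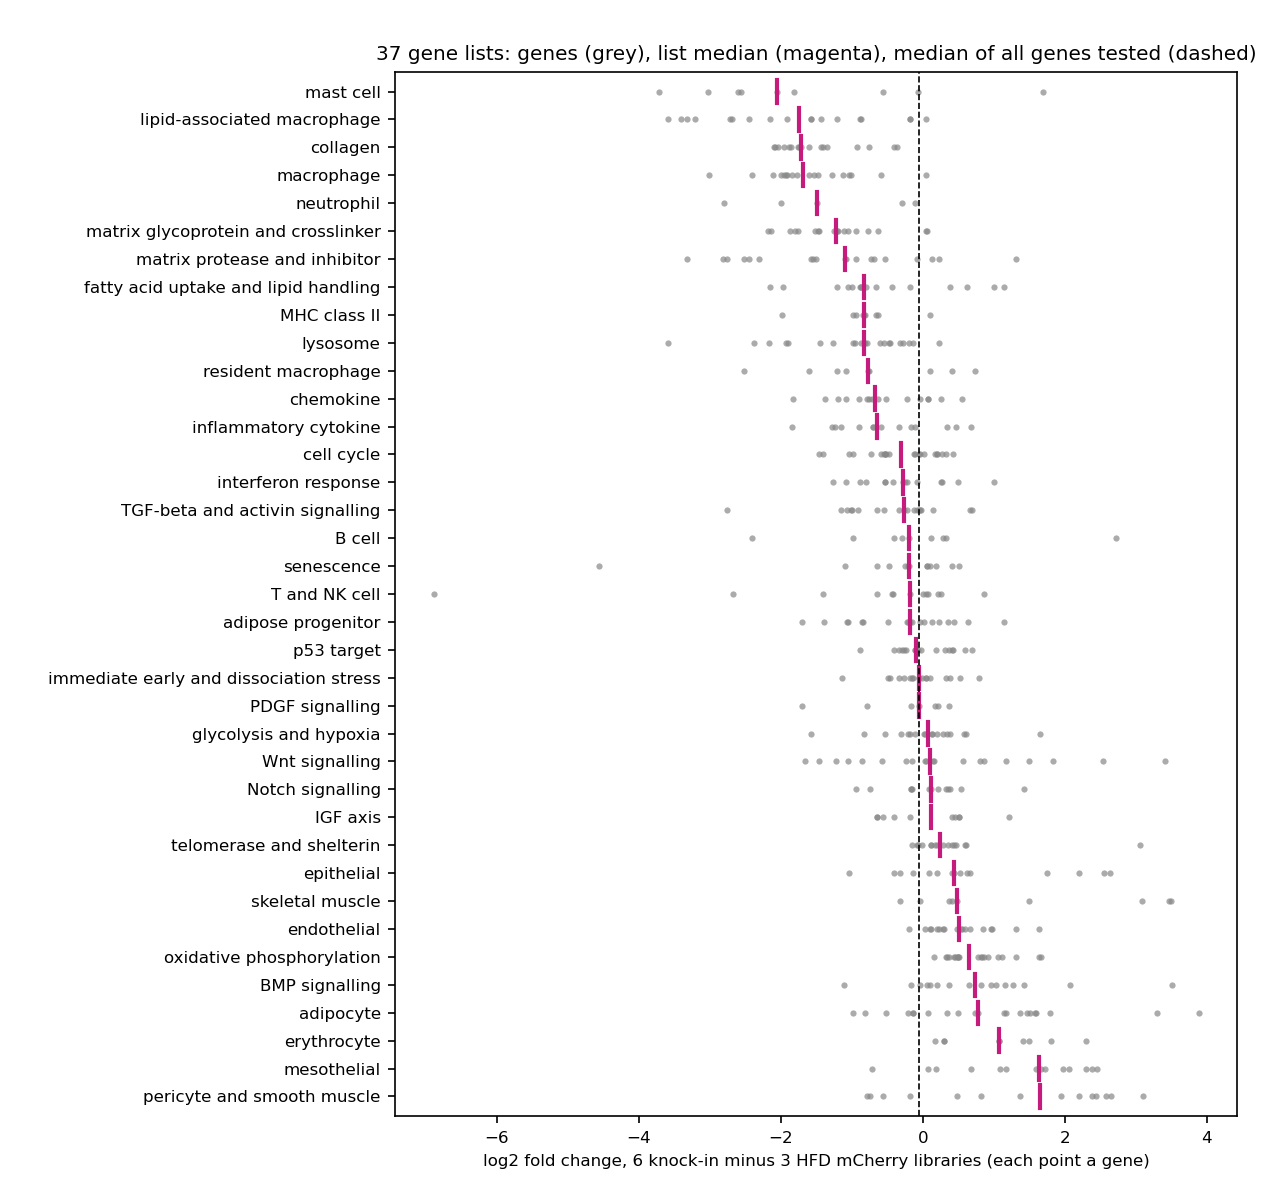
Log2 fold change of each tested gene (grey points) in the gene lists other than the epididymal one, with the list median (magenta) and the median of all genes tested (dashed line). Mast cell, macrophage, collagen and matrix lists lie left of the dashed line and mesothelial, mural and adipocyte lists right of it.

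Collagen genes were lower without exception in direction. All 17 had negative log2 fold changes (53.5% of all genes), 14 of them with an unadjusted p under 0.05 (13.4%), and the median was -1.71. None was called by edgeR, whereas DESeq2 called 13 lower (background 6.07%) and edgeR without HFD mCherry 15 called 12 lower (background 3.57%). Without HFD mCherry 17 or without HFD mCherry 20, edgeR called 0 of all genes. The summed level of the 17 collagen genes was 10858, 30639 and 34392 CPM in HFD mCherry and 4933 to 13634 CPM in the knock-in libraries (median 7120), with HFD Tert 27 above HFD mCherry 15. Col1a1, a chain of type I collagen, was at 1348, 3601 and 4652 CPM in HFD mCherry and at 509 to 1064 CPM in the knock-in libraries (log2 fold change -2.09, SE 0.416, adjusted p = 0.0560). Col6a1, of the type VI collagen around adipocytes, was at 721, 1906 and 2205 CPM against 352 to 714 CPM, just without overlap. Col3a1 overlapped, at 2829, 8790 and 8975 CPM against 807 to 3676 CPM. The macrophage and collagen sums were both lowest in HFD mCherry 15 among the controls and both highest in HFD Tert 27 among the knock-in libraries. The part of the macrophage share in the collagen difference was not tested.

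The remaining matrix genes went with the collagens. Of 19 matrix glycoproteins and crosslinkers, 17 were lower and 16 had an unadjusted p under 0.05 (background 13.4%), with a median of -1.23. There were 0 calls by edgeR, and DESeq2 called 10 lower (background 6.07%). Fn1, fibronectin, was at 857, 3588 and 3692 CPM in HFD mCherry and at 348 to 1180 CPM in the knock-in libraries, with HFD Tert 27 the highest of these. Of 19 matrix proteases and inhibitors, 1 was called lower, Mmp2 (background 0.144%), and 12 were lower at an unadjusted p under 0.05 (background 13.4%). The median was -1.10. Mmp11, stromelysin 3, was at 21.3, 56.6 and 72.7 CPM against 4.55 to 18.5 CPM (log2 fold change -2.81, SE 0.513, adjusted p = 0.0546). Mmp19 was at 153, 398 and 348 CPM against 38.1 to 118 CPM, and Adam12, a protease of the muscle and fat stroma, at 34.0, 119 and 155 CPM against 6.99 to 35.1 CPM. In the activin and TGF-beta list of 19 genes the median was -0.26, with 7 lower (background 13.4%) and 2 higher (background 7.56%) at an unadjusted p under 0.05. Inhba, the activin A subunit, was at 19.1, 81.4 and 108 CPM against 3.79 to 15.6 CPM, and Inhbb at 230, 313 and 311 CPM against 73.4 to 213 CPM. Both stood apart from the controls without being called (adjusted p 0.0619 and 0.0795).

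**Figure D4:**
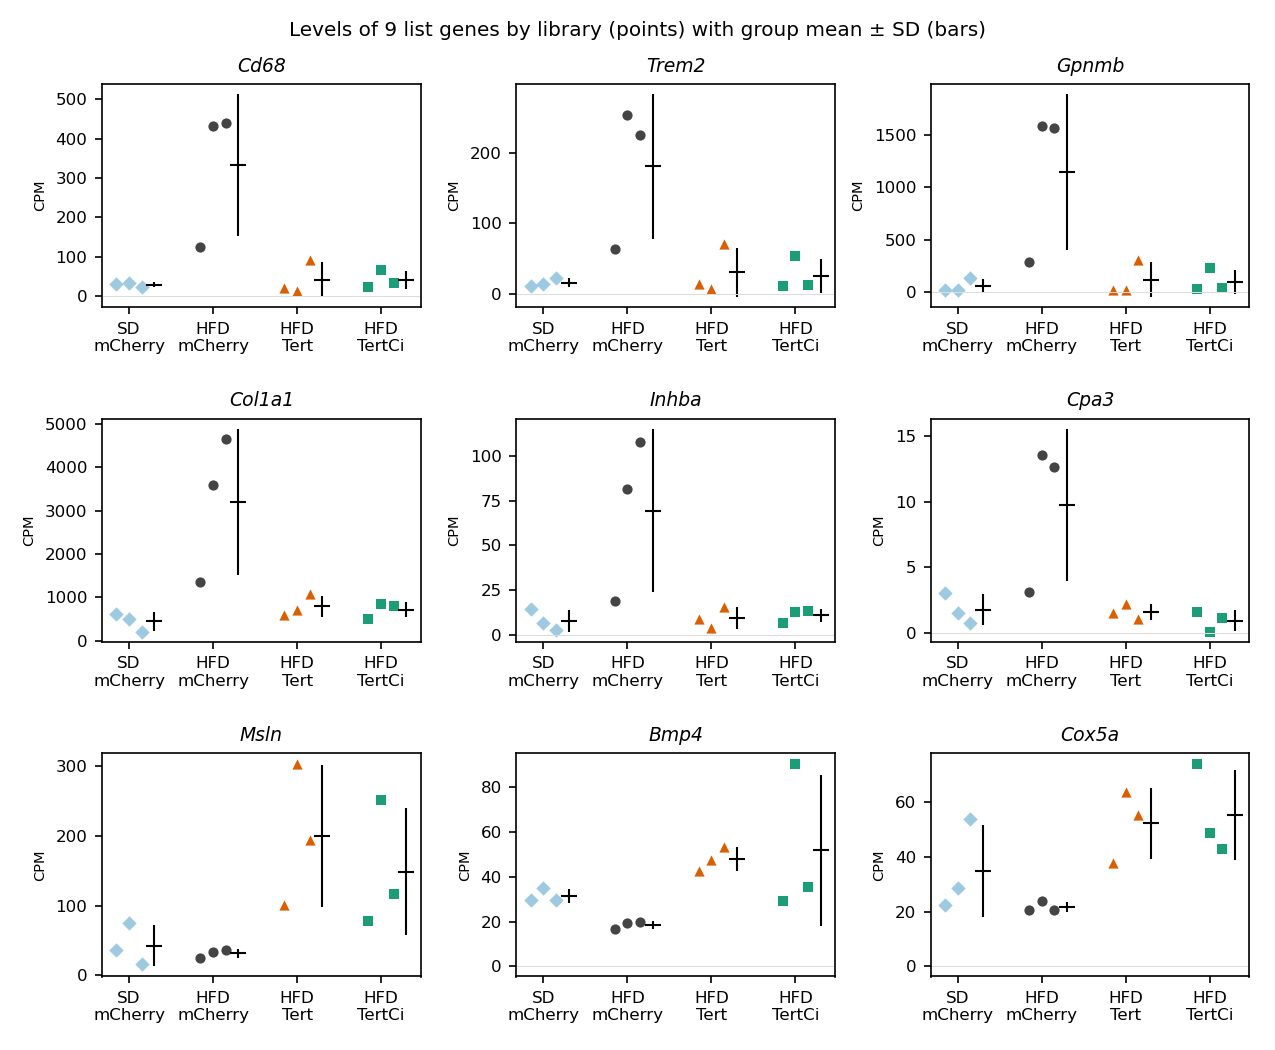
Level in CPM (linear axis) of 9 list genes in each of the 12 libraries, with the mean and SD of each group as bars. For Cd68, Trem2, Gpnmb, Col1a1, Inhba and Cpa3 the HFD mCherry 15 point lies well below the other 2 controls, and for Msln, Bmp4 and Cox5a all HFD mCherry points lie below all knock-in points.

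Progenitor and adipocyte genes did not move as one. Of 19 progenitor genes tested, 12 were lower and 7 higher, and the list median was -0.18. Pdgfra was the 1 gene called lower (background 0.144%). At an unadjusted p under 0.05, 3 were lower (background 13.4%) and 1 higher (background 7.56%). Clec11a, a secreted growth factor of stromal cells, was at 36.3, 56.3 and 53.8 CPM in HFD mCherry and at 15.8 to 28.1 CPM in the knock-in libraries (log2 fold change -1.07, adjusted p = 0.0738), and Fabp4, the fatty acid binding protein of adipocytes and endothelium, at 878 to 1686 CPM against 702 to 6132 CPM, with overlap. Of 21 adipocyte genes, 15 were higher and 8 of these had an unadjusted p under 0.05 (background 7.56%), with a median of 0.78. In that list 1 gene, Cfd, was called higher (background 0.0239%). The median difference was 0.59 within the libraries with Crisp1 and 0.19 within those without, and the summed level of HFD Tert 27 (458 CPM) and HFD TertCi 31 (457 CPM) was below the 547 to 808 CPM of HFD mCherry. Lipe, hormone-sensitive lipase, was at 21.9, 29.6 and 25.3 CPM against 31.4 to 62.4 CPM, and Retn, resistin, at 0, 0.361 and 0.0597 CPM against 0.663 to 4.05 CPM. Cebpa, a transcription factor of adipocyte differentiation, went the other way, at 53.9, 80.6 and 84.4 CPM against 28.2 to 48.0 CPM (log2 fold change -0.99, SE 0.292, adjusted p = 0.111). Of 16 genes of fatty acid uptake and lipid handling, 8 were lower at an unadjusted p under 0.05 (background 13.4%, list median -0.83). Slc27a1 was the 1 gene of that list called lower (background 0.144%).

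On the higher side, mesothelial genes stood out. Mesothelium is the lining of visceral fat and of other organs of the abdomen. Of 14 genes tested, 13 were higher and 9 had an unadjusted p under 0.05 (background 7.56%), with a median of 1.63 and 0 calls (7 called higher by DESeq2, background 3.64%). Without HFD mCherry 15, edgeR called 1 of the 14 higher (background 0.469%). Msln, mesothelin, was at 24.1, 33.6 and 36.4 CPM in HFD mCherry and at 77.3 to 304 CPM in the knock-in libraries (log2 fold change 2.46, SE 0.577, adjusted p = 0.0773). Gpm6a was at 21.1, 48.5 and 38.7 CPM against 87.5 to 259 CPM (2.30, SE 0.428, adjusted p = 0.0546). The summed mesothelial level was 1531, 616 and 715 CPM in HFD mCherry 15, 17 and 20 and 1374 to 3158 CPM in the knock-in libraries. The median difference was 1.80 within the libraries with Crisp1 and 1.42 within those without.

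Mural genes differed more within the libraries with Crisp1 than within those without. The 14 pericyte and smooth muscle genes had a median of 1.66, 8 of them higher at an unadjusted p under 0.05 (background 7.56%). Acta2, smooth muscle actin, was at 420, 404 and 169 CPM in HFD mCherry and at 528 to 3826 CPM in the knock-in libraries. Myh11, smooth muscle myosin, was at 469, 655 and 194 CPM against 3439, 4767, 3029 and 2744 CPM in the 4 knock-in libraries with Crisp1 and 234 and 342 CPM in the other two. The median difference was 2.03 within the libraries with Crisp1 and 0.25 within those without, where HFD mCherry 20 was the only control. The part of the epididymal transcripts in this difference was not tested. Endothelial genes differed in the reverse order, 0.30 within the libraries with Crisp1 and 0.76 within those without, again with that single control. Of 18 endothelial genes, 17 were higher but 4 had an unadjusted p under 0.05 (background 7.56%), with a median of 0.52. DESeq2 called 3 endothelial and 6 mural genes higher (background 3.64%) where edgeR called 0, as it also did without HFD mCherry 15 (background 0.469%). Emcn, endomucin, was at 34.3, 67.3 and 52.1 CPM against 92.2 to 302 CPM, and Pecam1 at 300 to 571 CPM against 414 to 1134 CPM.

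**Figure D5:**
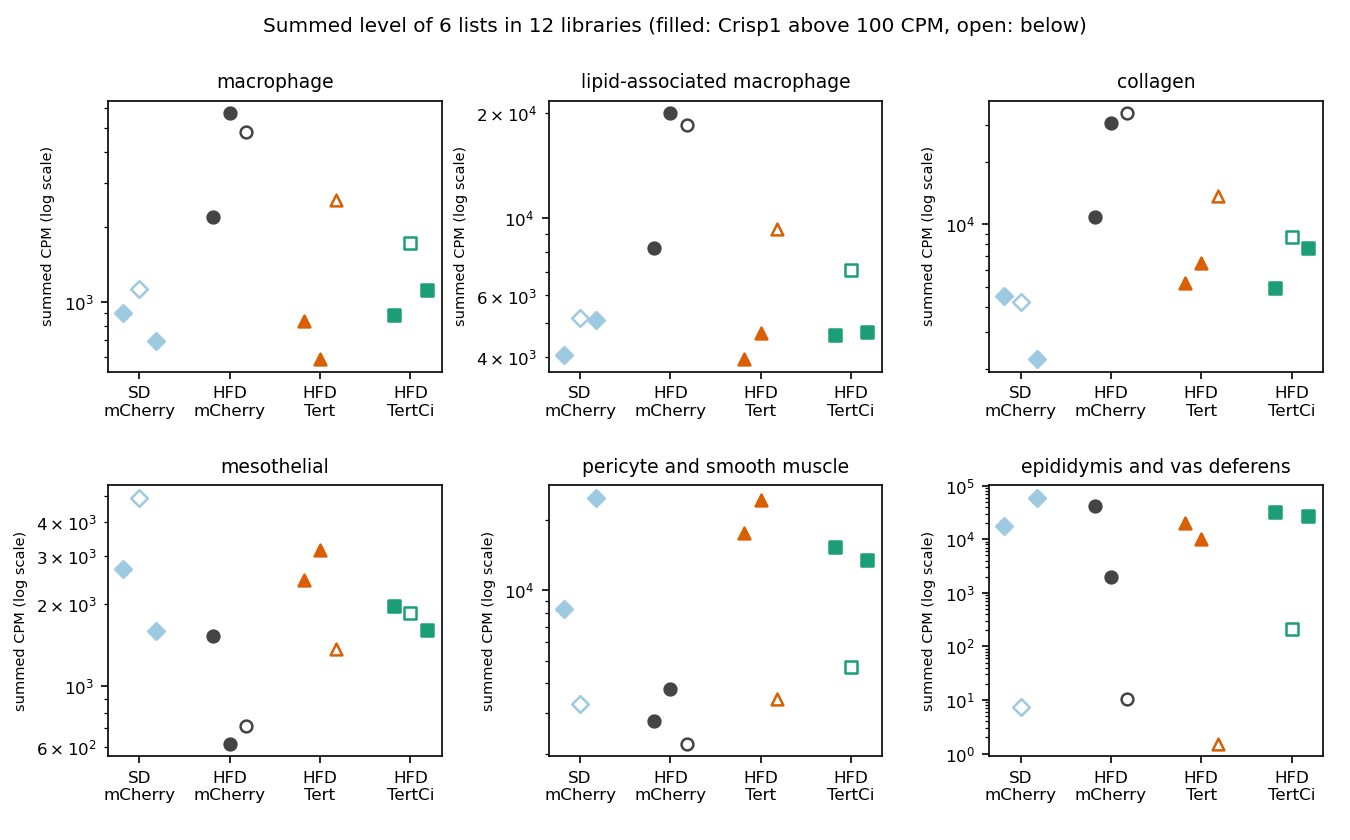
Summed CPM (log axis) of 6 gene lists in each of the 12 libraries by group, with filled points for libraries with Crisp1 above 100 CPM and open points for those below. Macrophage and collagen sums are highest in HFD mCherry 17 and 20, and pericyte and smooth muscle sums are higher in the 4 filled knock-in points than in the 2 open ones.

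Of 16 BMP signalling genes, 13 were higher, 6 with an unadjusted p under 0.05 (background 7.56%), with a median of 0.73. Bmp4, a ligand that commits progenitors to the fat lineage, was at 16.6, 19.3 and 19.8 CPM in HFD mCherry and at 29.2 to 90.6 CPM in the knock-in libraries (log2 fold change 1.42, SE 0.330, adjusted p = 0.0740). Id1, a target of BMP receptors, was at 49.5, 52.1 and 32.7 CPM against 76.0 to 323 CPM. Wnt genes had a median of 0.10, and a median difference of -0.23 within the libraries without Crisp1. Fzd1, a Wnt receptor, was at 62.3, 196 and 215 CPM against 35.3 to 58.5 CPM (-1.66, SE 0.311, adjusted p = 0.0546). All 20 nuclear genes of oxidative phosphorylation were higher (46.5% of all genes), 10 with an unadjusted p under 0.05 (7.56% of all genes), with a median of 0.65. The median difference was 0.70 within the libraries with Crisp1 and 0.40 within those without. The summed level of the 20 genes was 2900 to 3643 CPM in the 4 knock-in libraries with Crisp1, 2021 and 2108 CPM in HFD Tert 27 and HFD TertCi 31, and 1617 to 2048 CPM in HFD mCherry. The part of the epididymal transcripts here was not tested either. Cox5a, of complex IV, was at 20.7, 23.9 and 20.6 CPM against 38.0 to 74.2 CPM, and Ndufb5, of complex I, at 28.9, 21.9 and 16.5 CPM against 35.5 to 64.7 CPM. Glycolysis and hypoxia genes had a median of 0.08 with members on both sides. Hk2, hexokinase 2, was at 241, 332 and 316 CPM against 58.4 to 147 CPM (-1.58, SE 0.261, adjusted p = 0.0512). Egln3, an oxygen sensor induced by hypoxia, was at 19.9, 12.7 and 10.0 CPM against 27.5 to 54.9 CPM (1.65, SE 0.334, adjusted p = 0.0560). No gene of these 4 lists was called by edgeR, while DESeq2 called 4 BMP, 3 Wnt and 5 oxidative phosphorylation genes higher and 1 glycolysis and hypoxia gene higher and 2 lower, with 1 Wnt gene lower. Its shares of all genes were 3.64% higher and 6.07% lower. Without HFD mCherry 15, edgeR called no BMP, Wnt or oxidative phosphorylation gene higher and 1 glycolysis and hypoxia gene higher (background 0.469%). In that fit 1 Wnt gene and 1 glycolysis and hypoxia gene were called lower (background 3.57%).

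Genes tied to telomerase, to p21 and to the cell cycle had small median changes. The 16 telomerase and shelterin genes tested had a median of 0.24, with Tert at 3.06 and no member called. Of these, 12 were higher (46.5% of all genes), and 4 were higher without overlap of the groups (6.01% of all genes). Their summed level, which includes Tert, was 305 to 365 CPM in HFD mCherry and 384 to 467 CPM in the knock-in libraries, without overlap. In that list 2 genes were higher at an unadjusted p under 0.05, and DESeq2 called 1. Terf1, a shelterin protein that binds telomere repeats, was at 8.40, 8.72 and 7.59 CPM in HFD mCherry and at 9.28 to 15.4 CPM in the knock-in libraries (log2 fold change 0.60, SE 0.229, adjusted p = 0.178). The 19 p53 targets had a median of -0.09, with a median difference of 0.25 within the libraries without Crisp1. The median was -0.19 for the 13 senescence genes and -0.30 for the 22 cell cycle genes. Each of the 3 lists had 0 calls by edgeR. At an unadjusted p under 0.05, 2 p53 targets were higher and 1 lower, 4 senescence genes and 3 cell cycle genes were lower, and DESeq2 called 1 senescence gene lower. The shares of all genes were 7.56% higher and 13.4% lower at that threshold, and 3.64% and 6.07% by DESeq2. Hmga2, a chromatin protein on the senescence list, was at 1.16, 2.34 and 4.60 CPM in HFD mCherry and at 0 to 0.306 CPM in the knock-in libraries. The 17 immediate early and dissociation stress genes, a measure of how the tissue was handled, had a median of -0.06, with either sign over the alternatives.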

How the data were processed

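For each library the authors deposited raw counts of reads for 24422 gene symbols, per the file headers. RNA was poly-T selected and primed with random hexamers, per the labels' protocols. Subread, SAMtools, featureCounts 1.6.4 and the build mm10 are named in the submitters' processing notes. The annotation, and whether strand was used, are not given in the sources used here. The counts were used as deposited.

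Genes were filtered with filterByExpr, scaled by TMM (factors 0.854 to 1.15) and fitted with edgeR 4.0.16 in R 4.3.3 (quasi-likelihood, robust) over all 12 libraries in 4 groups. The contrast was the mean of HFD Tert and HFD TertCi minus HFD mCherry. Each SE was derived as the absolute log2 fold change divided by the square root of the quasi-likelihood F statistic. P-values were 2-sided and adjusted by Benjamini-Hochberg over 16713 genes, with a threshold of 0.05. Tert and Cdkn1a were compared by exact permutation of the 9 HFD libraries on log2(CPM + 0.1). Alternatives used DESeq2 1.42.0 and limma 3.58.1 (voom), and the pipeline was tested on simulated data.

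Named genes were up to 12 called genes per direction with the greatest fold change, averaging 1 CPM or more, whose groups did not overlap. Where fewer than 12 were called, genes not called, averaging 5 CPM or more and also without overlap, were added by unadjusted p. Tert, mCherry_Tert, Cdkn1a and genes of 38 lists were added to these. Of the genes that the rule names, 1 is left out of the text. The comparison, the rule and the lists were chosen with earlier results of these data known. Each list is described by its counts and median, with no test. Differences within the libraries with or without Crisp1 are of mean log2 CPM (prior count 2), and HFD mCherry 20 is the only control without Crisp1. Intervals for single counts were not computed, and counts without molecular identifiers are not independent molecules. Symbols matched RefSeq GRCm38.p6 for 23204 of 24422.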

Additional observations from a re-analysis of the deposited data

Results flagged for a closer look

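Among the 6 knock-in libraries, 124 values were checked for a library far from the others (Dixon's test at 95%). Its nominal rate of about 1 in 20 holds for independent normal values, which was not tested for these CPM. Of the 124 values, 9 stood apart. HFD Tert 27 was the high library for 6 of them: Runx2 at 8.46 CPM (next 2.99), Nav3 at 2.0 CPM (next 1.03), Mmp2 at 179 CPM (next 129), Fn1 at 1180 CPM (next 647), Mmp11 at 18.5 CPM (next 6.44) and Ccl11 at 274 CPM (next 146). HFD Tert 26 was the high library for Cfd, at 13.2 CPM (next 5.72), and for Tmem151a, at 66.4 CPM (next 36.5). HFD TertCi 31 was the high library for mCherry_Tert, at 5.54 CPM (next 2.86).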

How the results depend on the processing

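The number of genes called in the pooled comparison was 28. It was 68 with the 9 HFD libraries in 3 groups, 673 with them in 2 groups, 1543 with DESeq2, 12 with limma-voom, 121 with library size scaling, 1777 with the epididymis score as covariate, 719 with a term for Crisp1 libraries and 153 in the HFD libraries with Crisp1 alone (the last 2 chosen after seeing the data). Leaving out 1 library gave 0 to 690. The split of calls was 578 higher and 965 lower with DESeq2, 215 and 458 with 2 groups, 536 and 1241 with the covariate, and 50 and 71 with library size scaling, which moved the median of all genes to 0.04. Other scalings, filters and dispersion settings gave 23 to 42. Genes without overlap numbered 2179, and 2298 to 5381 without 1 library. Tert against TertCi gave 0 calls, 9 with DESeq2 and 2 in the HFD libraries with Crisp1 alone. The Tert difference ran from 2.73 to 3.08 without 1 library. The Cdkn1a difference ran from -0.38 to 0.07 and turned to 0.0712 without HFD mCherry 17. Its fitted log2 fold change ran from -0.32 to 0.0950 without 1 library, turning to 0.0117 with library size scaling, 0.0950 without HFD mCherry 17 and 0.00511 without HFD TertCi 30. The causes were not tested. No paired analysis was possible because no replicate number occurs in more than 1 group. Depth limits genes such as Cfd, with 7 counts in each control.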

Other observations

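The lists for lymphocytes, blood cells and muscle differed from one another. The summed level of the 14 listed T and NK cell genes with deposited counts was 131 to 212 CPM in HFD mCherry. It was 28.9 to 72.7 CPM in the knock-in libraries, without overlap, but the median log2 fold change of the 13 tested was -0.18. B cell genes had a median of -0.20 over 9 genes, and neutrophil genes -1.50 over 5 genes, with the neutrophil sum at 1156 CPM in HFD mCherry 15, 35.3 and 50.0 CPM in the other controls and 46.4 to 113 CPM in the knock-in libraries. Without HFD mCherry 15 the neutrophil median was -0.37. All 9 erythrocyte genes were higher (median 1.07), with 1 at an unadjusted p under 0.05, and their sum ran from 3265 to 6789 CPM in HFD mCherry and from 2620 to 21383 CPM in the knock-in libraries. Skeletal muscle genes had a median of 0.49 over 9 genes, and a median difference of -0.35 within the libraries without Crisp1. The 13 Notch genes had a median of 0.11 and the 10 IGF genes 0.12, and the T and NK cell, B cell, skeletal muscle, Notch and IGF medians each turned sign under 1 or more of the alternatives. None of these genes was called by edgeR.

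Epididymal and epithelial lists followed single libraries. The 10 epididymis and vas deferens genes tested had a median of -7.59, which became 3.84 without HFD mCherry 15, the library with 16086 CPM of the epididymal gene Gpx5. The 15 epithelial genes had a median of 0.43, which became 3.59 without the same library.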
